A study of Mus musculus with 10 samples.

Results

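The genes described here are 10 genes of T cells, the cells that cyclosporin A (CsA) is given to suppress, read in whole kidney: Cd3d, Cd3e, Cd3g, Cd4, Cd8a, Lck, Il2, Il2ra, Ifng and Gzmb. They were picked by name for their roles, with earlier results of these data known. Each had 1 feature on the array, and they are 10 of 30894 genes measured. RNA came from kidneys of mice aged 10 to 12 weeks on a C57BL/6 background. CsA mice were injected under the skin with 60 mg/kg CsA daily for 7 days and ate chow with 0.05% sodium, and vehicle mice ate the same chow and received a like volume of the solvent, cremophore. Both groups belonged to a line in which doxycycline can delete Vhl through rtTA under the Pax8 promoter, which is active in renal tubule cells. The labels describe no doxycycline injection for these samples specifically, so whether Vhl was deleted in them is unknown, and the line is shared by both groups. Each group held 5 samples, with 1 array (Affymetrix Mouse Gene ST 2.0) per sample. The labels do not say that each sample was a separate animal, and p-values here cover the spread among these 10 samples alone.

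T cells recognise antigen through a surface receptor whose CD3 subunits carry the signal inward, helped by the co-receptors CD4 or CD8 and by the kinase LCK. The resulting calcium signal activates the phosphatase calcineurin, which lets NFAT transcription factors enter the nucleus and switch on genes such as Il2 and Ifng. CsA bound to cyclophilin blocks calcineurin. A kidney with no inflammation holds few T cells, so their transcripts are a small part of its RNA.

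Xist and the mean of 4 Y-linked genes showed that CsA replicates 1 and 2 held female RNA, with Xist at 9.21 and 9.15 log2 signal, while the other 8 arrays did not exceed 4.82. The vehicle arrays were all male. The T cell genes and the called genes are therefore also given for the 8 male arrays (3 CsA, 5 vehicle). Array medians lay between 5.14 and 5.21, and the correlation between 2 arrays over all features was 0.976 to 0.989. Kidney genes were bright, with a mean over 8 segment markers of 10.4 to 10.6 log2 signal in CsA arrays and 10.4 to 10.5 in vehicle arrays.

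None of the 10 T cell genes differed between CsA and vehicle kidneys past the threshold (limma on log2 signal, adjusted p under 0.05), and none reached an unadjusted p under 0.05, which 20.8% of all genes did. The same fit called 6.49% of all genes, 2.95% higher and 3.54% lower in CsA. These shares include many genes brighter than most of the T cell genes, and shares for genes of like signal were not computed. In no T cell gene did the CsA arrays lie wholly above or below the vehicle arrays, which 9.09% of all genes did. The differences ran between -0.02 and 0.21 log2, with standard errors of 0.08 to 0.15. Their 95% intervals reached at most 0.53 upward (1.45-fold, Gzmb) and -0.28 downward (1.21-fold lower, Il2). Changes inside those intervals were not excluded, and the intervals are not a limit of detection. An interval clear of 0 was not enough for a call, since Thy1 missed it at 0.29 (interval 0.04 to 0.54, limma adjusted p = 0.171). The intervals are of signal, and at the 2.47 log2 of Il2 a fall in mRNA could go unseen. In bulk kidney RNA, fewer T cells and less RNA per T cell cannot be told apart.

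The signals were dim. As a scale, 1445 sensory receptor genes (olfactory, vomeronasal and trace amine receptors, with little or no expression known in kidney) had a median of 2.80 log2 signal and a 95th percentile of 5.15. Of the 10 T cell genes 9 lay at or below that 95th percentile, as did 14831 of all 30894 genes. At or below the 90th percentile of the sensory receptors, 4.56, lay 3 of the 10. Cd3e lay above the 95th percentile at 6.01, the 63.1th percentile of all genes. Il2 averaged 2.47, below the median of the sensory receptors and at the 7.59th percentile of all genes. The other 8 lay between 3.67 (Gzmb) and 5.01 (Cd4), no higher than the 45.1th percentile. Signal depends on the probes as well as on the RNA, so the order of genes on this scale is not an order of mRNA amounts, and differences near the floor of an array are compressed.

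**Figure D1:**
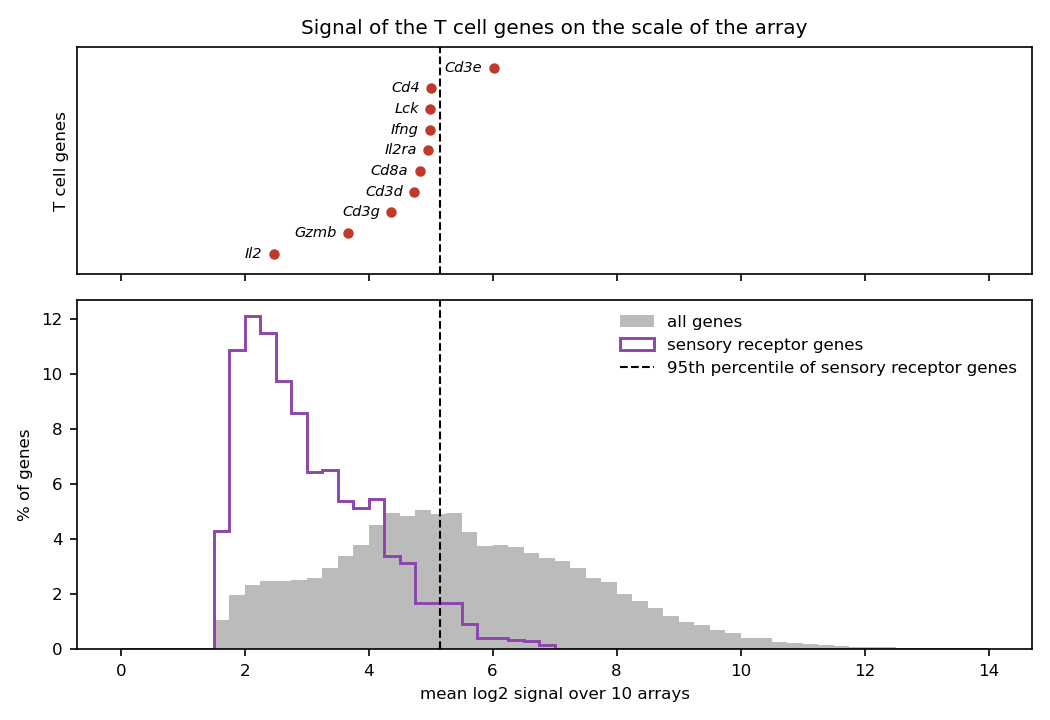
Upper panel, mean log2 signal over 10 arrays of each T cell gene; lower panel, the share of all genes (grey) and of 1445 sensory receptor genes (purple line) at each signal. The dashed line is the 95th percentile of the sensory receptor genes, 5.15; 9 T cell genes lie left of it and Cd3e, at 6.01, right of it.

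The CD3 subunits come first. Cd3e encodes the epsilon chain, a part of every T cell receptor complex. Its log2 signal was 6.30, 6.22, 5.91, 5.93 and 5.84 in CsA replicates 1 to 5, and 5.83, 5.98, 6.01, 6.18 and 5.95 in vehicle replicates 1 to 5. The groups overlapped, and the highest 2 values belonged to the 2 female CsA arrays. The difference was 0.05 ± 0.10 (SE; 95% interval -0.17 to 0.27, limma adjusted p = 0.836), and with male arrays only it was -0.10 (interval -0.29 to 0.09, limma adjusted p = 0.587).

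Cd3d, the delta chain, read 5.02, 4.79, 4.51, 4.63 and 4.95 in CsA arrays and 4.86, 4.68, 4.64, 4.56 and 4.71 in vehicle arrays. CsA arrays held both the highest and the lowest value. The difference was 0.09 (interval -0.13 to 0.31, limma adjusted p = 0.682), with a males-only interval of -0.24 to 0.25.

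Cd3g, the gamma chain, read 4.79, 4.42, 3.89, 4.50 and 4.39 in CsA arrays and 4.24, 4.19, 4.43, 4.58 and 4.19 in vehicle arrays. Again the ends of the range were both CsA arrays, replicate 1 at the top and replicate 3 at the bottom. The difference was 0.07 (interval -0.24 to 0.39, limma adjusted p = 0.827), and -0.07 in males (interval -0.39 to 0.26).

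The co-receptors mark helper and cytotoxic T cells. Cd4, the helper co-receptor, read 5.28, 5.29, 4.87, 5.07 and 5.06 in CsA arrays and 4.86, 5.06, 4.58, 5.08 and 4.92 in vehicle arrays. The 2 female CsA arrays were highest and the male CsA arrays lay within the vehicle range. At 0.21 (interval -0.03 to 0.45, limma adjusted p = 0.304) it was the largest difference of the 10, and it was 0.10 in males (interval -0.17 to 0.36, limma adjusted p = 0.708).

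Cd8a, the cytotoxic co-receptor, read 4.87, 4.79, 4.54, 4.82 and 5.09 in CsA arrays and 4.69, 4.63, 4.75, 5.13 and 4.89 in vehicle arrays. Both groups covered nearly the same range. The difference was 0.01 (interval -0.24 to 0.26, limma adjusted p = 0.982), with a males-only interval of -0.32 to 0.32.

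Lck, the kinase that phosphorylates the CD3 chains, read 4.88, 5.02, 5.18, 5.12 and 5.02 in CsA arrays and 4.62, 5.17, 4.81, 4.84 and 5.27 in vehicle arrays. The CsA values lay inside the wider vehicle range. The difference was 0.10 (interval -0.16 to 0.36, limma adjusted p = 0.684), and 0.17 in males (interval -0.15 to 0.48).

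**Figure D2:**
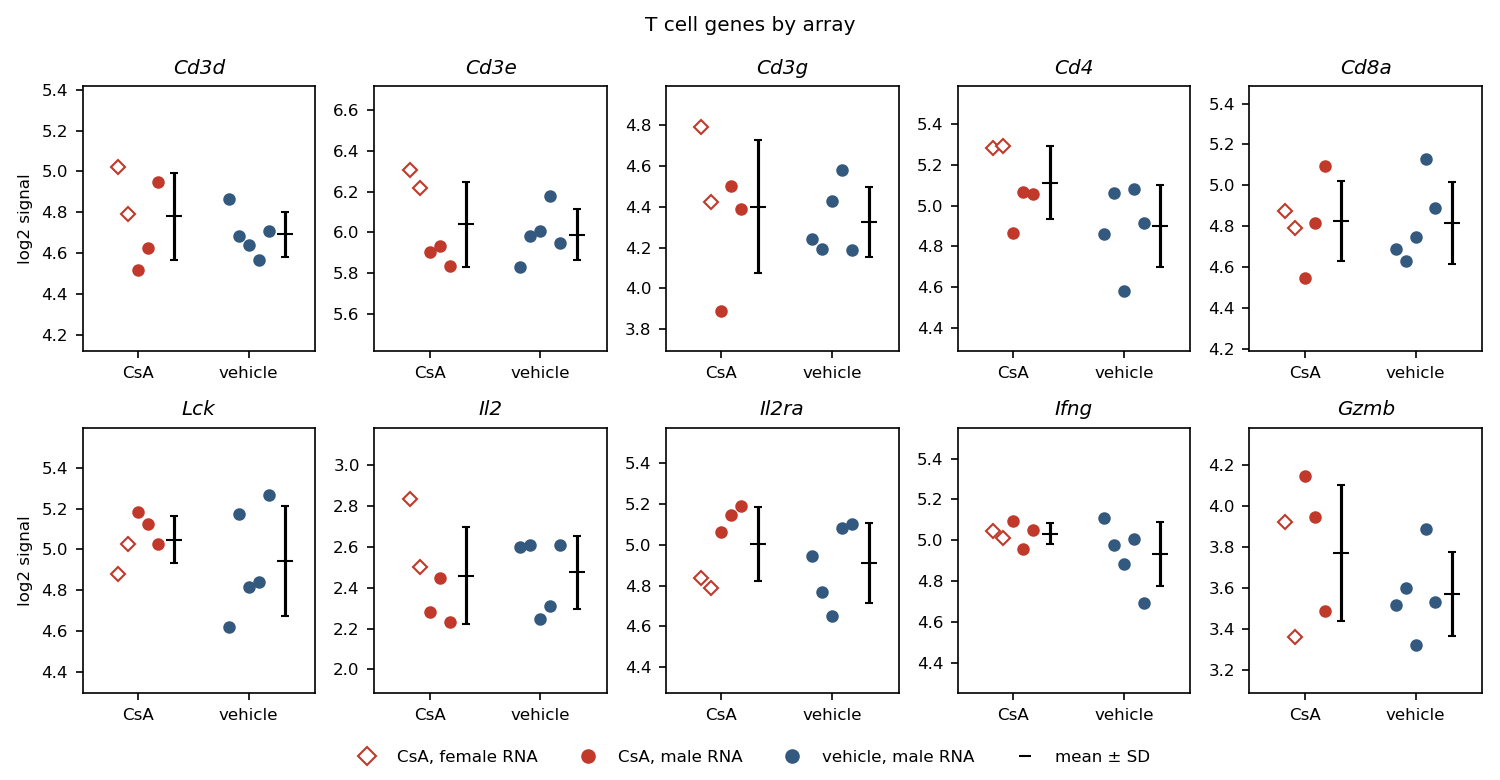
Log2 signal of each T cell gene in every array, CsA left and vehicle right, with the group mean ± SD (n = 5 each); open diamonds are the 2 CsA arrays with female RNA. The groups overlap in every panel, and in Cd3e, Cd4 and Il2 both female arrays lie above the 3 male CsA arrays.

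The cytokine, its receptor and the effector genes are those that T cell activation switches on, and Il2, Ifng and Il2ra are textbook targets of calcineurin and NFAT. Their promoters are shown as a description, and neither NFAT binding nor promoter activity was measured. Each line holds the 250 bases before the start of the gene, 5′ to 3′ on its own strand, from RefSeq (GRCm38.p6). Capitals mark GGAAA, the core of NFAT sites (TTTCC where it is on the other strand), or TGANTCA, the AP-1 motif. The Il2 window is chr3:37125955-37126204, minus strand. The Il2ra window is chr2:11642542-11642791, plus strand. The Ifng window is chr10:118440796-118441045, plus strand. The Gzmb window is chr14:56262335-56262584, minus strand.
Il2: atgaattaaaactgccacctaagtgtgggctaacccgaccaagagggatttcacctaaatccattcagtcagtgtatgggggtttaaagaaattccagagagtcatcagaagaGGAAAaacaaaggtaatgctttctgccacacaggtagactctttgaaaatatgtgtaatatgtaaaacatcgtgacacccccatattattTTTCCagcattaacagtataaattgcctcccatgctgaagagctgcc
Il2ra: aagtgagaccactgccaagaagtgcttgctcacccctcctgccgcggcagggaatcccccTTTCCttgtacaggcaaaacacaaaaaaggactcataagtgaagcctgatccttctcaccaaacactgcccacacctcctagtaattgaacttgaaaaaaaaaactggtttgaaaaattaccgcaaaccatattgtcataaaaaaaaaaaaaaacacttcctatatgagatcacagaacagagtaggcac
Ifng: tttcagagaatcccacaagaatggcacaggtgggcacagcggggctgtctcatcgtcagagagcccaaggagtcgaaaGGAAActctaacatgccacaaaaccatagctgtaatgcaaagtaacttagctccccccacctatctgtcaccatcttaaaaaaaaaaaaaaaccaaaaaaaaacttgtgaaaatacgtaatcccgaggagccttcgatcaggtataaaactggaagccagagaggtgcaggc
Gzmb: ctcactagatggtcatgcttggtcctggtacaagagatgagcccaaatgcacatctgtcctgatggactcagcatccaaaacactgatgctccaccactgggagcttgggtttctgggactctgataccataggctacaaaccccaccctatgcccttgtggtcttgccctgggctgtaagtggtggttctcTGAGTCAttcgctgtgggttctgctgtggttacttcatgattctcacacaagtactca

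The search ran on both strands of windows from 250 bases before to 50 after the start, and the motifs searched do not overlap each other in these genes. Of the 10 T cell genes 9 had a promoter to search, with 10 windows, 2 of them for Lck, and Cd4 had none. GGAAA was in 8 of the 10 windows, against 61.3% of all 32851 promoters. With the gene start as 0, Il2 held it at -137 and -47, Il2ra at -190 and Ifng at -172. It was not particular to these genes. Cd3d held it at -225 and -176, Cd3e at -101 and -61, Cd3g at -182, Cd8a at -20 and 17, and 1 Lck window at -195. Gzmb held none, and its window was the only one with TGANTCA, at -58, against 7.81% of all promoters. A match is a description of these letters and not of a bound site.

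Il2 encodes interleukin 2, the growth factor made by activated T cells. It read 2.83, 2.50, 2.28, 2.45 and 2.23 in CsA arrays and 2.60, 2.61, 2.25, 2.31 and 2.61 in vehicle arrays. The highest and the lowest value were both CsA arrays, at a signal no brighter than that of sensory receptor genes. The difference was -0.02 (interval -0.28 to 0.25, limma adjusted p = 0.961), and -0.16 in males (interval -0.40 to 0.09, limma adjusted p = 0.489).

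Il2ra, the alpha chain of the interleukin 2 receptor, appears on activated and regulatory T cells. It read 4.84, 4.79, 5.06, 5.15 and 5.19 in CsA arrays and 4.94, 4.77, 4.65, 5.08 and 5.10 in vehicle arrays. Here the 2 female CsA arrays were below the 3 male ones. The difference was 0.10 (interval -0.14 to 0.33, limma adjusted p = 0.686), and 0.22 in males (interval -0.02 to 0.47, limma adjusted p = 0.317).

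Ifng encodes interferon gamma, the cytokine that activates macrophages. It read 5.04, 5.01, 5.09, 4.96 and 5.05 in CsA arrays and 5.11, 4.98, 4.88, 5.01 and 4.69 in vehicle arrays. The CsA arrays lay close together within the vehicle range. The difference was 0.10 (interval -0.07 to 0.27, limma adjusted p = 0.531), and 0.10 in males (interval -0.12 to 0.32).

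Gzmb encodes granzyme B, a protease that cytotoxic T cells and natural killer cells deliver into target cells. It read 3.92, 3.36, 4.15, 3.95 and 3.49 in CsA arrays and 3.52, 3.60, 3.32, 3.89 and 3.53 in vehicle arrays. Of the CsA arrays 3 were above every vehicle array and 2 were below the vehicle mean of 3.57. The difference was 0.20 (interval -0.13 to 0.53, limma adjusted p = 0.497), and 0.29 in males (interval -0.06 to 0.64, limma adjusted p = 0.364).

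Of the 10 differences 9 were positive and 1 negative, with a median of 0.09, while 51.7% of all genes were positive with a median of 0.01. The 10 genes were read on the same arrays, so their signs are not independent, and 4 of them were highest in CsA replicate 1. With male arrays only, 7 were positive and 3 negative, with a median of 0.05. Of all 30894 genes 15510 were positive in males, with a median of 0.0009. None of the 10 was called in males (limma adjusted p from 0.317 to 0.997), against 3.17% of all genes. None was under an unadjusted p of 0.05, against 18.8% of all genes. The mean of the 10 genes was 4.55 to 4.78 in CsA arrays and 4.43 to 4.67 in vehicle arrays.

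**Figure D3:**
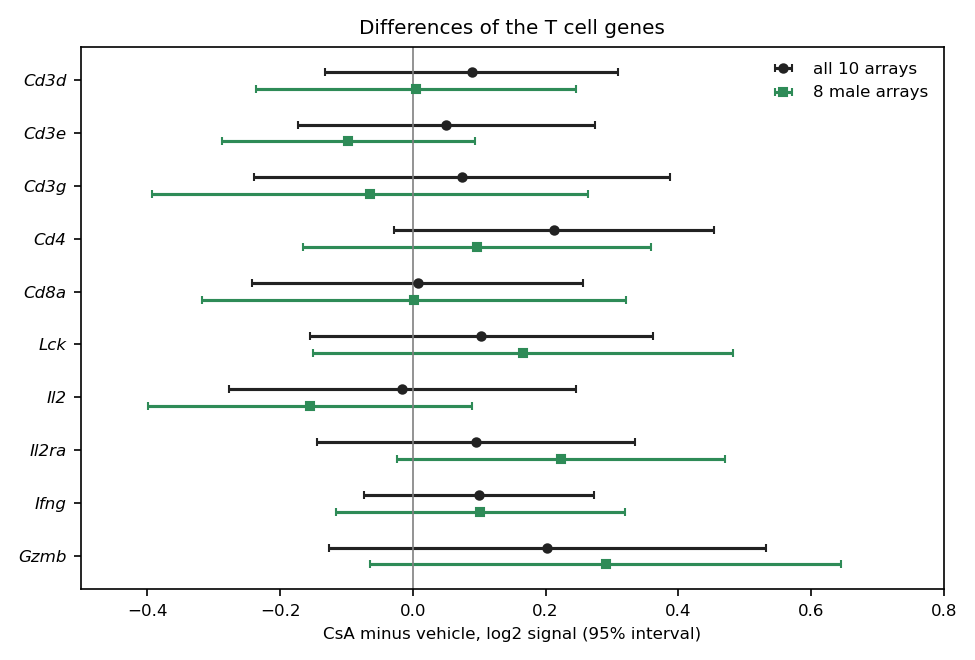
Difference of each T cell gene, CsA minus vehicle, in log2 signal with its 95% interval from limma, over all 10 arrays (black circles) and over 8 male arrays (green squares). Every interval includes 0. Without the female arrays the differences of Cd3d, Cd3e, Cd3g, Cd4 and Il2 are lower, those of Lck, Il2ra and Gzmb are higher, and those of Cd8a and Ifng move by less than 0.01.

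The female arrays were all in the CsA group, so their term compares 2 CsA arrays with 3 CsA arrays. That term passed the adjusted threshold in 0 of the 10 T cell genes and in 0.589% of all genes. Cd3e, Il2 and Il2ra had an unadjusted p under 0.05, as did 9.53% of all genes. Female minus male, Cd3e differed by 0.37 (interval 0.14 to 0.60, limma adjusted p = 0.228), Il2 by 0.35 (interval 0.03 to 0.67), and Il2ra by -0.32 (interval -0.61 to -0.03). Both female arrays lay above all 3 male CsA arrays in Cd3e, Cd4 and Il2, as they did in 12.6% of all genes. Across the 10 arrays, after the mean of each group was subtracted, the genes whose log2 signal was most like that of Cd3e were Ptprd (Pearson r = 0.960), Gm9903 (0.955) and Astn2 (0.953), the highest of 16062 genes. These r values are a description over 10 arrays that include the female ones.

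Of 26 genes for the T cell receptor complex and its first signalling steps, 2 rose, 1 fell and 23 did not pass the test, against 6.49% of all genes called. Their median was 0.12. In the range of the sensory receptor genes lay 10 of the 26, against 14831 of all 30894 genes. Csk, the kinase that holds LCK inactive, was 1.31-fold higher at 6.85 ± 0.11 log2 signal in CsA and 6.46 ± 0.12 in vehicle (SD, n = 5 each; limma adjusted p = 0.0118), with no overlap between the groups. Csk is made in most cell types and stayed called when any 1 array was left out. In males only its difference was 0.39 log2, the same as over all 10 arrays, and the groups did not overlap, but the smaller set did not pass (limma adjusted p = 0.0573). Over all 10 arrays 9.09% of all genes did not overlap, and the males-only share was not computed.

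Fyb, an adaptor of T cells and myeloid cells, was 1.33-fold higher at 5.33 ± 0.18 in CsA and 4.91 ± 0.20 in vehicle (limma adjusted p = 0.0444). Its call was lost without any 1 of 8 arrays, CsA replicates 1 to 4 and vehicle replicates 2 to 5 (adjusted p up to 0.106), and in males only (difference 0.31 log2, against 0.41 over all arrays; adjusted p = 0.185). Ptpn22, a phosphatase that damps receptor signalling, was 1.33-fold lower at 5.38 ± 0.15 in CsA and 5.80 ± 0.14 in vehicle (limma adjusted p = 0.0197). It lost the call without CsA replicate 2, vehicle replicate 2 or vehicle replicate 4 (adjusted p up to 0.0546), and in males only (difference -0.34 log2, against -0.41 over all arrays; adjusted p = 0.107).

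Of the receptor partners and surface genes chosen by name, none of the following 8 was called. Cd247, the zeta chain, differed by 0.17 (interval -0.04 to 0.38), and Cd8b1, the partner of Cd8a, by 0.21 (interval -0.04 to 0.46). The kinase gene Zap70 differed by 0.07 (interval -0.22 to 0.37) and the adaptor gene Lat by 0.13 (interval -0.07 to 0.33). The surface genes Cd2 and Cd5 differed by 0.18 (interval -0.07 to 0.43) and 0.11 (interval -0.04 to 0.25). Thy1, another surface gene of T cells, differed by 0.29 (interval 0.04 to 0.54, limma adjusted p = 0.171) and Ptprc, the CD45 phosphatase of all leukocytes, by 0.39 (interval 0.14 to 0.65, limma adjusted p = 0.0712), both short of the threshold.

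None of 20 genes for T cell identity and state was called, with 3 under an unadjusted p of 0.05, against 20.8% of all genes, and a median of 0.05. None of 20 activation genes that depend on calcineurin and NFAT was called either, with 2 under an unadjusted p of 0.05, against 20.8% of all genes. Their median was 0.02. In the range of the sensory receptor genes lay 16 of the 20, against 14831 of all 30894 genes, and shares for genes of like signal were not computed. Fasl, the death ligand of activated T cells, differed by -0.10 (interval -0.31 to 0.11).

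Of 14 measured genes of cytotoxic and natural killer cells 1 rose, against 6.49% of all genes called. Ccl5, a chemokine of T cells and of other cells, was 2.08-fold higher at 7.62 ± 0.30 in CsA and 6.57 ± 0.30 in vehicle (SD, n = 5 each; limma adjusted p = 0.00357, and 0.0273 in males only). The granule genes Gzma, Prf1 and Nkg7 differed by 0.17 (interval -0.10 to 0.44), 0.07 (interval -0.10 to 0.25) and 0.15 (interval -0.11 to 0.41).

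None of 10 genes for the receptors of interleukin 2 and interferon gamma and their kinases and STATs was called, with 2 under an unadjusted p of 0.05, against 20.8% of all genes. Il2rb and Il2rg, the signalling chains of the interleukin 2 receptor, differed by 0.11 (interval -0.05 to 0.27) and 0.09 (interval -0.11 to 0.30). The interferon gamma receptor chains ran opposite ways, Ifngr1 at -0.21 (interval -0.36 to -0.05, limma adjusted p = 0.116) and Ifngr2 at 0.23 (interval 0.05 to 0.40, limma adjusted p = 0.119), and neither passed.

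Of 16 genes that interferon gamma is known to induce 4 rose, none fell and 12 did not pass, against 6.49% of all genes called. Their median was 0.25. Cxcl10, a chemokine that draws T cells, was 2.14-fold higher at 6.81 ± 0.36 in CsA and 5.71 ± 0.16 in vehicle (SD, n = 5 each; limma adjusted p = 0.0021, and 0.00503 in males only). Gbp3, a guanylate-binding protein gene, was 1.46-fold higher (limma adjusted p = 0.0321), H2-Ab1, an MHC class II chain, 1.28-fold higher (limma adjusted p = 0.0469), and Psmb8, an immunoproteasome subunit, 1.24-fold higher (limma adjusted p = 0.0498). With males only their differences were of like size but did not pass, at 0.50 log2 for Gbp3 (0.55 over all arrays), 0.38 for H2-Ab1 (0.36) and 0.32 for Psmb8 (0.31), with limma adjusted p of 0.134, 0.08 and 0.133. They also lost the call when single arrays were left out, Gbp3 in 8 of 10 cases, H2-Ab1 in 8 and Psmb8 in 9. Other interferons induce several of these genes too.

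The lists of other cell types were chosen with earlier results of these data known, so their counts are a description and not a test. Of all genes 6.49% were called, and 3.17% in males only. Among the lists of other leukocytes, macrophage genes were called most often. Of 13 macrophage genes 9 rose (8 in males only), with a median of 0.53. Their mean was 6.69 to 6.97 log2 signal in CsA arrays and 6.20 to 6.40 in vehicle arrays, so the groups did not overlap. The mean of the interferon gamma targets did not overlap either, at 6.59 to 6.73 in CsA arrays and 6.31 to 6.47 in vehicle arrays. The other list means overlapped over all 10 arrays. In males only the adipocyte means (5.98 to 6.17 in CsA, 5.41 to 5.94 in vehicle) and blood means (7.09 to 7.32 and 6.67 to 7.05) were also apart. Groups of fewer arrays fall apart more easily. Over all 10 arrays 9.09% of single genes did not overlap. No such share was computed for list means or for males only, so these gaps are a description. C1qc and C1qb, complement genes of macrophages, were 1.66-fold and 1.98-fold higher (limma adjusted p = 0.000397 and 0.000508, and 0.00666 and 0.00359 in males only). Adgre1 and Cd68 were 1.81-fold and 1.49-fold higher (limma adjusted p = 0.0022 each, and 0.0152 and 0.0218 in males only). Of 10 B cell genes 1 rose, Cd72 at 2.29-fold (limma adjusted p = 0.00227, and 0.0196 in males only), with a median of 0.01. None of 10 dendritic cell or 9 neutrophil genes was called, except that Cd209a fell in males only (limma adjusted p = 0.0372). Of 8 adipocyte genes 1 rose (2 in males only), Retn at 0.82 log2 (limma adjusted p = 0.0139, and 0.0168 in males only). Of 5 measured blood cell genes none was called (2 rose in males only). Of 8 kidney genes none was called (1 fell in males only). The part of macrophages in the Ccl5, Cxcl10, Csk and Fyb values was not tested.

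**Figure D4:**
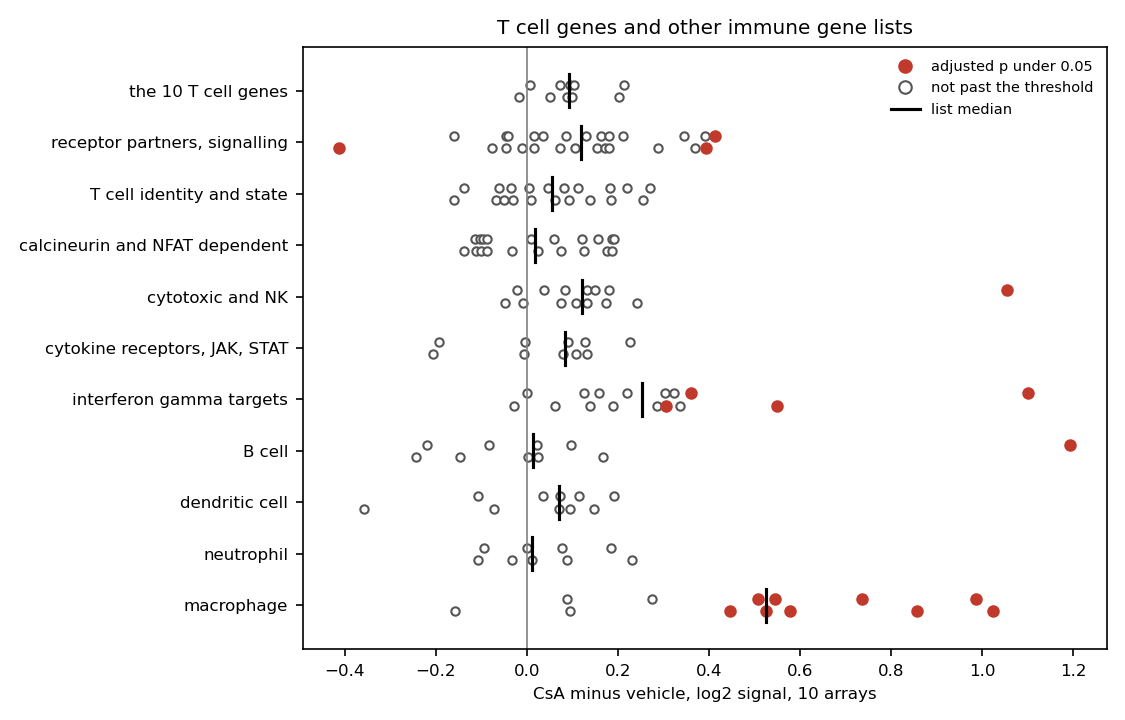
Difference of each gene, CsA minus vehicle in log2 signal over 10 arrays, for the 10 T cell genes and 10 related lists; filled red circles passed an adjusted p of 0.05 in limma, open circles did not, and black bars are list medians. The 10 T cell genes lie between -0.02 and 0.21 with no filled circle, while 9 of 13 macrophage genes are filled, with a list median of 0.53. All lists were chosen with earlier results of these data known.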

How the data were processed

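Kidney RNA of 10 samples was profiled, and groups came from the source descriptions. The authors deposited log2 values per feature (41345 features, 2 identical tables). RMA and Partek 6.4 are named in the submitters' processing notes, without order or settings, and the annotation build is not given in the sources used here. Scan dates and detection calls were not used here, and the number of arrays limits precision.

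Symbols were updated through RefSeq accessions (21749 features), gene identifiers (2337) and synonyms (230) of GRCm38.p6, used only for names, chromosomes and promoters. Another 8155 features kept the deposited symbol and 8874 had none. Each gene was its feature with the highest mean, which left 30894 genes with no filter. Log2 values were compared with limma 3.58.1 in R 4.3.3 (lmFit, eBayes, 2-sided, no covariate) and adjusted by Benjamini-Hochberg over all genes. The procedure was tried on simulated data with independent genes, which does not measure the power to see changes in the T cell genes.

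The T cell genes and all lists were chosen with earlier results of these data known. Genes named were the T cell genes, 16 chosen list genes, the 3 most like each T cell gene above the sensory receptor range, and up to 4 called genes per list by adjusted p. Cd209a and the T cell receptor segments were named after their values were seen. Alternatives were male arrays only, a term for female arrays, filters on signal, other normalisations and moderation, and leaving out each array.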

Additional observations from a re-analysis of the deposited data

Results flagged for a closer look

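Cd5, a surface gene of T cells, read 5.78 log2 signal in CsA replicate 1, one of the arrays with female RNA, while the other CsA arrays lay between 5.57 and 5.62. Its gap to the nearest array was 0.763 of the range of the group. It was the only array so far from the rest among 52 groups screened (26 genes, CsA and vehicle apart), and chance alone flags about 1 in 20 groups. No such array was found among the 10 T cell genes themselves.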

How the results depend on the processing

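No T cell gene was called under any alternative run. The lowest limma adjusted p when 1 array was left out was 0.196 (Cd4). A filter at the 25th percentile of signal left 8 of the 10 to be tested, and one at the median left 1. Signs of small differences turned. Cd3e was -0.0073 with array weights and -0.10 in males only and with a term for female arrays, and -0.016 to 0.10 when 1 array was left out. Cd3g was -0.065 in males only and with the term, and -0.024 to 0.20 with 1 array left out. Cd8a was -0.0019 with arrays centred on their medians and -0.060 to 0.085 with 1 left out. Il2 was 0.025 after quantile normalisation again and -0.11 to 0.041 with 1 left out, and Zap70 was -0.045 to 0.17. Calls over all genes numbered 2004, against 3284 with the filter at the median (fewer genes tested), 980 in males only, 1011 with the term, and 1134 to 1927 with 1 array left out. Calls in the 5 T cell lists numbered 4, against 8, 1, and 2 to 4 in the first, second and last of these settings. Ptprc passed with either filter and with trend and robust moderation (limma adjusted p = 0.0289 to 0.0474), and Ifngr1 and Ifngr2 with the filter at the median (0.0425 and 0.0468). With the 90th percentile of the sensory receptors as the bound, 3 rather than 9 T cell genes lay at or below it. The cause of these shifts was not tested. No paired analysis was possible because the labels carry no replicate numbers shared between groups. Dim signal, 5 arrays a group and female RNA in CsA arrays only limit all values.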

Other observations

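The variable, joining and constant segments of the T cell receptor genes, which the T cell lists leave out, were gathered after their values were seen. Of 190 measured segments 2 rose and none fell over all 10 arrays, against 6.49% of all genes called. An unadjusted p under 0.05 was found for 17, against 20.8% of all genes, and the median difference was 0.02 log2. In the range of the sensory receptor genes lay 141, against 14831 of all 30894 genes. Trbj1-6, a joining segment of the beta chain, was 1.29-fold higher at 9.17 ± 0.12 in CsA and 8.80 ± 0.12 in vehicle (SD, n = 5 each; limma adjusted p = 0.0198). This is the brighter of its 2 features. It read brighter than the constant segments Trbc1 and Trbc2, and whether its probes read T cell receptor RNA alone was not tested. The Trbj1-6 call was lost without CsA replicate 2, vehicle replicate 3 or vehicle replicate 4 (adjusted p up to 0.0543). Traj38, a joining segment of the alpha chain, was 1.43-fold higher (limma adjusted p = 0.0324) and lost the call in 6 of 10 cases in which 1 array was left out, without CsA replicates 1, 2 or 5 or vehicle replicates 1, 2 or 4 (adjusted p up to 0.077). In males only no segment was called, against 3.17% of all genes. An unadjusted p under 0.05 was found for 22, against 18.8% of all genes. The males-only differences were 0.33 log2 for Trbj1-6 and 0.37 for Traj38, against 0.37 and 0.51 over all arrays.

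The constant segments of the beta chain, which nearly all T cells transcribe, were brighter than the sensory receptor range and were not called. Trbc1 averaged 6.92 ± 0.20 in CsA and 6.69 ± 0.18 in vehicle (difference 0.23, interval -0.01 to 0.48, limma adjusted p = 0.256), and 0.09 in males. Trbc2 averaged 7.70 ± 0.13 in CsA and 7.57 ± 0.06 in vehicle (difference 0.12, interval -0.04 to 0.28, limma adjusted p = 0.37). The constant segments of the gamma chain differed by 0.12 (Trgc2), -0.003 (Trgc3) and -0.004 (Trgc4), none of them called. Trbc1 and Trbc2 are near-identical copies, so their probes may share signal.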
